A study of Mus musculus with 8 samples.

Results

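Chemokine transcripts were measured in retinas of rd10 mice, a strain whose rods degenerate because of a mutation in the rod phosphodiesterase gene Pde6b. The 10 genes described here, Ccl2, Ccl3, Ccl4, Ccl5, Ccl7, Ccl12, Cxcl1, Cxcl9, Cxcl10 and Cx3cl1, were taken by their names from the 54532 genes of the deposited tables, and each name had 1 row. Bulk RNA sequencing gave 4 libraries of rd10 retina labelled sIVs (numbered 2 to 5) and 4 of rd10 retina labelled PBS (numbered 1 to 4). By the series title, sIVs are small intracellular vesicles, and the labels call the PBS libraries the control group. Both groups carry the rd10 genotype, and no library of a wild-type retina was part of the comparison. The sources used here do not give age, sex, vesicle source, dose, route or interval after treatment. No label ties a library to an animal, so p-values measure only the spread between these libraries, which may be partly technical.

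Chemokines are small secreted proteins that guide leukocytes through G protein-coupled receptors. CC chemokines carry adjacent cysteines near the amino terminus, CXC chemokines carry cysteines separated by 1 residue, and Cx3cl1, or fractalkine, is a membrane-tethered form on neurons whose receptor Cx3cr1 is carried by microglia. In degenerating retina, Müller glia and microglia are known sources of Ccl2, which draws Ccr2-bearing monocytes from blood.

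Library totals ran from 15039385 to 16989737 counts in sIVs and from 14640235 to 15948291 counts in PBS. Libraries 3 and 4 of the sIVs group stood apart from the others. Their summed level of 10 rod markers was 8914 and 8416 CPM (counts scaled to library size), against 38891 and 31536 CPM in sIVs libraries 2 and 5 and 34427 to 40874 CPM in PBS. In a bulk library, fewer rods and less rod RNA per cell cannot be told apart. Results are therefore also given without these 2 libraries.

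By group mean all 10 genes were higher in sIVs, but none passed the test across all genes. For Ccl2 and Ccl12, ligands of Ccr2, the lowest sIVs library exceeded the highest PBS library. The means of Cx3cl1 were close, at 121.9 ± 12.2 CPM in sIVs and 119.8 ± 9.17 CPM in PBS (SD, n = 4 each). Low counts kept Ccl7, Cxcl1 and Cxcl9 out of the test, which left 7 genes. Of these 7, 0 passed edgeR's quasi-likelihood test at an adjusted p of 0.05. The same test called 0 of 17725 genes, a background of 0%, while 2702 genes (15.2%) had an unadjusted p below 0.05, 6 of the 7 chemokine genes among them. All 6 were higher in sIVs, a direction and threshold that 9.61% of tested genes met. limma-voom also called 0 genes and 0 members. DESeq2 called 536 genes (3.02%), 447 of them (2.52%) higher in sIVs, and 2 members, Ccl2 and Ccl12. At a threshold of 0.1, edgeR called 11 genes (0.0621%), 10 of them higher in sIVs (0.0564%), and 0 members. Without sIVs libraries 3 and 4 it called 3 genes (0.0164%), 2 of them higher in sIVs (0.011%), and 0 members. All 7 fold changes were above 1, as were those of 49% of tested genes. Their median was 2.11 on the log2 scale, against -0.01 over all tested genes, and it was 0.81 without sIVs libraries 3 and 4. A gene of low level that passes the filter on counts through its higher group had to differ, so these summaries describe the genes and do not test them.

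**Figure D1:**
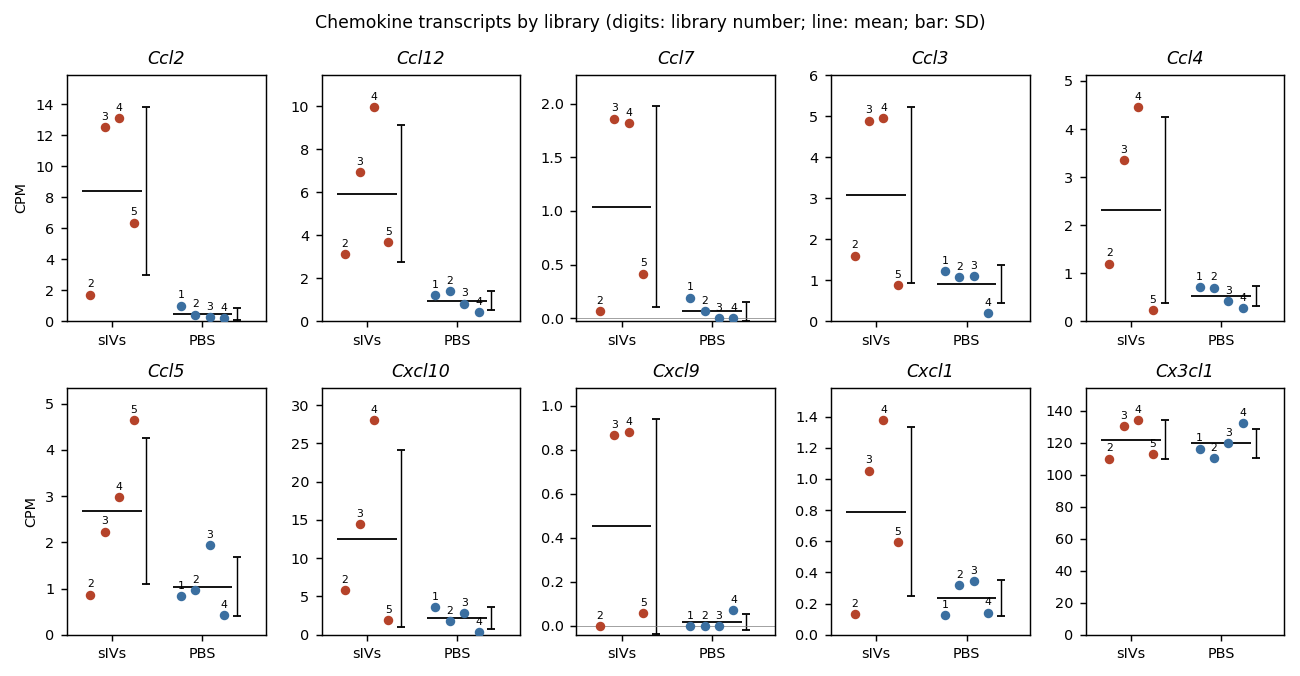
CPM of each chemokine gene by library, sIVs left and PBS right in each panel, with digits for the library number, a line for the mean and a bar for the SD (n = 4 each). The groups are separate for Ccl2 and Ccl12 and overlap for Cx3cl1.

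All 10 genes had the same start and end in GENCODE M21 as in the deposited table, so coordinates are GRCm38. Most of the 9 genes other than Cx3cl1 sit close to another one. On chromosome 11, Ccl2 (82035571 to 82037453), Ccl7 (82045712 to 82047525) and Ccl12 (82101845 to 82103400) lie in tandem on the plus strand. Further along the same chromosome lie Ccl5 (83525778 to 83530518, minus strand), Ccl3 (83647844 to 83649355, minus strand) and Ccl4 (83662584 to 83664683, plus strand). On chromosome 5, Cxcl9 (92321347 to 92328079) and Cxcl10 (92346638 to 92348889) are neighbours on the minus strand, and Cxcl1 (90891241 to 90893115, plus strand) lies apart from them. Cx3cl1 is on chromosome 8 (94772009 to 94782427, plus strand). All are protein-coding, with up to 3 exons per annotated transcript for the CC genes and up to 4 for the others.

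Promoter sequence from RefSeq (GRCm38.p6) was found for 6 of the 10 genes. The 250 bases before the RefSeq start of 3 of them are shown because Cxcl10 and Cxcl1 held matches to motifs of inflammatory transcription factors, and because Ccl12 was 1 of the 2 genes whose groups did not overlap. They are written 5′ to 3′ on the gene's strand, at chr5:92348890-92349139 (minus strand) for Cxcl10, chr5:90890995-90891244 (plus strand) for Cxcl1 and chr11:82101595-82101844 (plus strand) for Ccl12, with motif matches in capitals.
Cxcl10: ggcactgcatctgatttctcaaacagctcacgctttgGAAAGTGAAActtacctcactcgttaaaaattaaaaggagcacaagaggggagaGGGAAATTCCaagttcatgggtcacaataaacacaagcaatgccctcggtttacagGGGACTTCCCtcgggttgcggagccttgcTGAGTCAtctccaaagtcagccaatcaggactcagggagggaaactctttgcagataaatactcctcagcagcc
Cxcl1: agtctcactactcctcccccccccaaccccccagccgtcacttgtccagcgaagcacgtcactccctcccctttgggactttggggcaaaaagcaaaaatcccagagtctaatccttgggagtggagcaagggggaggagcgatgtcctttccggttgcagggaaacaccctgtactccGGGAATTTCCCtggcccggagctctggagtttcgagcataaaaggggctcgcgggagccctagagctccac
Ccl12: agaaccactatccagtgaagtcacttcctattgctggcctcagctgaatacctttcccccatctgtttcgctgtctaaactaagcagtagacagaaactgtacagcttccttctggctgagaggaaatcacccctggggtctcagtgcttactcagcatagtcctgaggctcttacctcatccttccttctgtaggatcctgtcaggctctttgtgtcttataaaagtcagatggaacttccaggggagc

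Motifs were searched on both strands in these 250 bases, counted so that position -1 is the base before the RefSeq start. That start is not always the one of the deposited annotation. The Cxcl1 window ends at 90891244, past the start given above, and the Cx3cl1 window ends at 94772179, so that a large part of it lies inside the gene as given above. The Cxcl10 window held the interferon-stimulated response element core, GAAA repeated after any 2 bases, at positions -213 to -204, which 2.98% of 32851 promoter windows of the same length held. It also held the NF-kappaB consensus at -159 to -150 and at -103 to -94 (3.90% of windows) and the AP-1 motif TGANTCA at -74 to -68 (6.75% of windows). The Cxcl1 window held 1 stretch that read as the NF-kappaB consensus on both strands, with overlapping matches at -71 to -62 and -70 to -61. The motif TTCNNNGAA, bound by STAT factors and held by 7.02% of windows, matched in none of the 6 windows. The windows of Ccl12, Ccl3 and Cxcl9, and the window before the RefSeq start of Cx3cl1, held none of the motifs, which says nothing about sites outside them. A match is a description of the sequence and not a binding site.

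The Ccr2 ligands Ccl2 and Ccl12 had the largest estimated fold changes among the 7 tested chemokine genes, that of Ccl12 being within its SE of that of Cxcl10. Ccl2, the monocyte chemoattractant, stood at 1.74, 12.5, 13.1 and 6.37 CPM in sIVs libraries 2 to 5, against 1.03, 0.448, 0.277 and 0.213 CPM in PBS libraries 1 to 4. The groups did not overlap, although sIVs library 2 was close to the highest PBS library, and the PBS values rested on 16, 7, 4 and 3 counts. Across all genes tested, 4.42% had every sIVs library above every PBS library, as 2 of the 7 chemokine genes did, and 3.36% had the reverse, as 0 of the 7 did. The log2 fold change of Ccl2 was 4.06 ± 0.68 (SE, 4 of 4 sIVs libraries higher, adjusted p = 0.13 by edgeR), the rank of its p being 21 among 17725 genes. Without PBS library 1 it was 4.71, and without sIVs libraries 3 and 4 it was 3.01 (adjusted p = 0.12 by edgeR).

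Ccl12, a mouse CC chemokine encoded near Ccl2 and also a Ccr2 ligand, stood at 3.14, 6.94, 9.98 and 3.69 CPM in sIVs libraries 2 to 5. PBS libraries 1 to 4 held 1.22, 1.41, 0.831 and 0.426 CPM. The lowest sIVs library was above the highest PBS library, and the log2 fold change was 2.59 ± 0.45 (SE, adjusted p = 0.136 by edgeR, rank 27). It was 1.79 without sIVs libraries 3 and 4 (adjusted p = 0.131 by edgeR). Ccl2 and Ccl12 passed edgeR's test when sIVs library 2 was left out (adjusted p = 0.00561 and 0.00974), a setting in which 7.39% of all genes were called and 4.83% were called higher in sIVs. Both also passed when no filter on low counts was applied (adjusted p = 0.0133 and 0.0181 by edgeR), where 0.45% of genes were called and 0.43% were called higher.

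Ccl7, the third Ccr2 ligand of the tandem cluster, had 1, 30, 33 and 7 counts in sIVs libraries 2 to 5 and 3, 1, 0 and 0 counts in PBS libraries 1 to 4. Libraries 3, 4 and 5 of sIVs exceeded the PBS values, and library 2 was within the PBS range. The summed counts of 71 in sIVs and 4 in PBS gave a ratio of 16.9 after scaling to library totals. Its exact 95% interval of 6.32 to 63.7 covers counting error only. Ccl11, between Ccl7 and Ccl12 on the chromosome, and Ccl8, just past Ccl12, reached at most 0.0640 and 0.200 CPM in any library.

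Ccl3, Ccl4 and Ccl5 were above the PBS range in fewer sIVs libraries. Ccl3, macrophage inflammatory protein 1-alpha, stood at 1.60, 4.90, 4.96 and 0.893 CPM in sIVs libraries 2 to 5, against 1.22, 1.09, 1.11 and 0.213 CPM in PBS libraries 1 to 4. Libraries 2, 3 and 4 were above every PBS library and library 5 was within the PBS range. Its log2 fold change was 1.75 ± 0.61 (SE, adjusted p = 0.247 by edgeR), and 0.43 without sIVs libraries 3 and 4. Ccl4, macrophage inflammatory protein 1-beta, stood at 1.20, 3.35, 4.46 and 0.238 CPM in sIVs, against 0.707, 0.704, 0.416 and 0.284 CPM in PBS. Library 5 was below the lowest PBS library in CPM, but both held 4 counts, so they cannot be told apart. The difference for Ccl4 on the log2 scale was 2.11 ± 0.73 (SE, adjusted p = 0.246 by edgeR), and 0.39 without sIVs libraries 3 and 4.

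Ccl5, or RANTES, which attracts T cells and monocytes, had another order of libraries. It stood at 0.869, 2.23, 2.98 and 4.64 CPM in sIVs libraries 2 to 5, against 0.835, 0.960, 1.94 and 0.426 CPM in PBS libraries 1 to 4. Library 5, within the PBS range for Ccl3 and near its lower end for Ccl4, was the highest for Ccl5, and library 2 was within the PBS range. For Ccl5 the log2 fold change was 1.37 ± 0.53 (SE, adjusted p = 0.278 by edgeR), and 1.42 without sIVs libraries 3 and 4. Ccl6 and Ccl9, CC chemokine genes between Ccl5 and Ccl3 on the chromosome, were at 0.85 ± 0.35 and 0.38 ± 0.18 on the log2 scale (SE, adjusted p = 0.299 and 0.345 by edgeR), and at 0.48 and 0.13 without those libraries.

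Among CXC chemokines, Cxcl10, an interferon-induced ligand of Cxcr3 on T and NK cells, stood at 5.81, 14.4, 28.1 and 1.91 CPM in sIVs libraries 2 to 5. PBS libraries 1 to 4 held 3.66, 1.79, 2.84 and 0.355 CPM. Libraries 2, 3 and 4 were above every PBS library, and library 5 was within the PBS range. On the log2 scale the difference for Cxcl10 was 2.53 ± 0.79 (SE, adjusted p = 0.209 by edgeR), 1.76 without sIVs library 4, and 0.81 without sIVs libraries 3 and 4. Art3, a gene on the other strand that overlaps Cxcl10, stood at 1.68 CPM in sIVs and 1.62 CPM in PBS on average, below Cxcl10 in both groups. Its log2 fold change was 0.06 ± 0.34 (SE, adjusted p = 0.952 by edgeR). Whether counting used strand is not stated, so how reads in the shared stretch were assigned is not known. The same holds for Ccl2, which lies within Gm17268, a protein-coding gene on the other strand with 0 CPM in every library.

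Cxcl9, the other Cxcr3 ligand, had 0, 14, 16 and 1 counts in sIVs libraries 2 to 5 and 0, 0, 0 and 1 counts in PBS libraries 1 to 4. Only sIVs libraries 3 and 4 were above PBS, with a summed ratio of 29.5 (exact 95% interval 4.92 to 1203, counting error only). A count of 0 allows up to 0.165 to 0.213 CPM (3 counts) in these libraries. Cxcl1, a neutrophil attractant that binds Cxcr2, had 2, 17, 25 and 10 counts in sIVs libraries and 2, 5, 5 and 2 counts in PBS libraries. Libraries 3, 4 and 5 were above PBS, with a summed ratio of 3.67 (exact 95% interval 2.01 to 7.16, counting error only). The unfiltered edgeR fit gave log2 fold changes of 3.82 ± 0.95 for Ccl7, 4.23 ± 1.30 for Cxcl9 and 1.73 ± 0.61 for Cxcl1 (SE, adjusted p = 0.0898, 0.184 and 0.268).

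Cx3cl1 stood at 110.1, 130.3, 134.3 and 112.8 CPM in sIVs libraries 2 to 5, against 116.4, 110.7, 119.6 and 132.3 CPM in PBS libraries 1 to 4. Library 4 alone was above every PBS library, and the groups overlapped. Its log2 fold change was 0.025 ± 0.089 (SE, adjusted p = 0.918 by edgeR), and -0.11 without sIVs libraries 3 and 4. In a list of 5 protease genes that includes the fractalkine sheddases Adam10 and Adam17, Adam17 and Bace1 had the smallest p. Adam17 was at 0.21 ± 0.07 and Bace1 at -0.17 ± 0.10 on the log2 scale (SE, adjusted p = 0.244 and 0.461 by edgeR), and 0 of the 5 passed. Without sIVs libraries 3 and 4, Adam17 was at 0.22 and Bace1 at 0.0032.

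**Figure D2:**
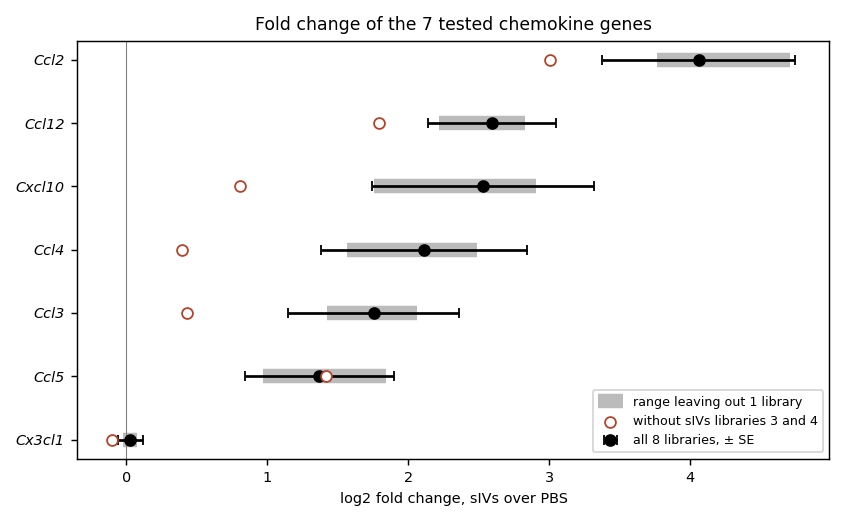
Log2 fold change of sIVs over PBS for the 7 tested chemokine genes with all 8 libraries (filled, ± SE), its range when 1 library is left out (grey bar) and its value without sIVs libraries 3 and 4 (open). Ccl2 and Ccl12 keep values of 3.01 and 1.79 without those libraries, while Ccl3 and Ccl4 stand at 0.43 and 0.39.

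By library, the 10 genes did not move as 1 block. In sIVs library 4 all 10 and in library 3 all but Cx3cl1 were above every PBS library. Libraries 2 and 5 had 5 such genes each, and shared 2 of them, Ccl2 and Ccl12. Library 2 added Ccl3, Ccl4 and Cxcl10, and library 5 added Ccl5, Ccl7 and Cxcl1. The share of all genes above every PBS library was not counted for single libraries. These counts therefore describe the members only, and they include Ccl7, Cxcl1 and Cxcl9, which were under the filter.

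Ratios of counts within a library do not depend on scaling, and 5 were set from shared receptors or from the contrast of Ccl2 with Cx3cl1. Of these, 3 had no count of 0 and were tested by an exact two-sided permutation test over 70 relabellings, whose smallest p is 0.0286. The log2 ratio of Ccl2 to Cx3cl1 was -4.21 ± 1.22 in sIVs and -8.07 ± 0.99 in PBS (SD, n = 4 each), a difference of 3.86 (exact permutation p = 0.0286, adjusted p = 0.0857). For Ccl2 to Ccl12 the log2 ratio was 0.30 ± 0.78 in sIVs and -1.05 ± 0.62 in PBS, a difference of 1.34 (exact permutation p = 0.0571, adjusted p = 0.0857). In counts, Ccl2 exceeded Ccl12 in sIVs libraries 3, 4 and 5, at 1.80, 1.31 and 1.73 times, and in no PBS library. The log2 ratio of Ccl3 to Ccl4 was 0.72 ± 0.73 in sIVs and 0.59 ± 0.71 in PBS (SD, n = 4 each, exact permutation p = 0.83, adjusted p = 0.83). None of the 3 passed after adjustment. Ccl2 passed the filter on counts through the sIVs group, and Cx3cl1 was nearly level between groups. The difference in the Ccl2 to Cx3cl1 ratio thus largely repeats the log2 fold change of Ccl2, 4.06, and is no separate support for it. The ratios with a gene under the filter are values only: Ccl7 to Ccl2 averaged -3.39 in sIVs and -2.63 in PBS, and Cxcl10 to Cxcl9 averaged 5.21 in sIVs and 5.23 in PBS, on the log2 scale with 0.5 added to each count.

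Levels between genes are compared per gene length, in the deposited FPKM (fragments scaled to gene length and library size). Cx3cl1 led in both groups, at 31.0 ± 3.05 FPKM in sIVs and 30.4 ± 2.24 FPKM in PBS (SD, n = 4 each). Next in sIVs came Ccl12 at 11.0 ± 5.89, Ccl2 at 7.40 ± 4.74, Cxcl10 at 5.57 ± 5.14, Ccl3 at 4.03 ± 2.79, Ccl4 at 3.50 ± 2.93 and Ccl5 at 2.79 ± 1.64 FPKM. The order in PBS was Ccl12 at 1.81 ± 0.813, Ccl3 at 1.18 ± 0.610, Ccl5 at 1.08 ± 0.670, Cxcl10 at 0.960 ± 0.635, Ccl4 at 0.799 ± 0.322 and Ccl2 at 0.432 ± 0.327 FPKM. Neighbours from Ccl12 to Ccl5 in sIVs and from Ccl12 to Ccl4 in PBS differed by less than the larger of their SDs, while Ccl4 and Ccl2 in PBS differed by slightly more. Ccl7, Cxcl1 and Cxcl9 had the lowest means, at 1.30, 0.421 and 0.150 FPKM in sIVs and 0.0802, 0.125 and 0.00585 FPKM in PBS.

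The 9 genes other than Cx3cl1 summed to 15.0, 47.2, 62.1 and 20.5 FPKM in sIVs libraries 2 to 5, against 8.65, 7.54, 7.34 and 2.37 FPKM in PBS libraries 1 to 4. All 4 sIVs sums were above every PBS sum. Ccl2 made up 10.2%, 23.3%, 18.5% and 27.3% of the sum in sIVs libraries 2 to 5 and 10.4%, 5.21%, 3.32% and 7.83% in PBS libraries 1 to 4. Ccl5 made up 6.06%, 4.91%, 4.98% and 23.6% in sIVs libraries 2 to 5 and 10.1%, 13.2%, 27.5% and 18.6% in PBS libraries 1 to 4. Its share in sIVs library 5 was within the PBS range, and the other sIVs libraries were below it.

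**Figure D3:**
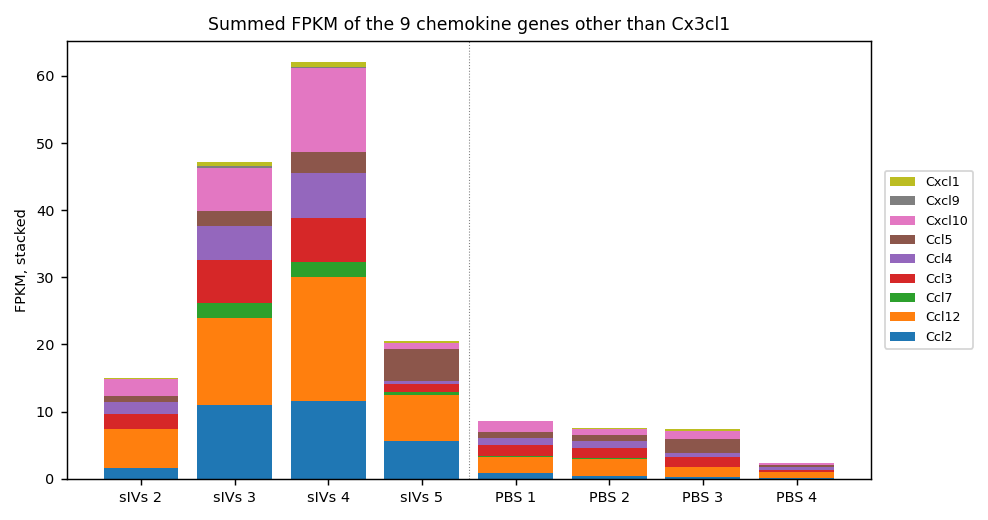
FPKM of the 9 chemokine genes other than Cx3cl1, stacked by library, sIVs left and PBS right of the dotted line. The sums run from 15.0 to 62.1 FPKM in sIVs and from 2.37 to 8.65 FPKM in PBS, and Ccl5 has its highest level in sIVs library 5.

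Receptor transcripts differed between the same libraries. Ccr2, the receptor of Ccl2, Ccl7 and Ccl12 on inflammatory monocytes, had 2, 120, 106 and 11 counts in sIVs libraries 2 to 5 and 1 count in each PBS library. All 4 sIVs libraries were above PBS, but libraries 3 and 4 held nearly all of the counts, and the gene was under the filter. Ccr1, a receptor of Ccl3 and Ccl5, stood at 0.802, 2.91, 1.87 and 1.07 CPM in sIVs libraries against 0.771, 0.960, 1.39 and 0.213 CPM in PBS libraries. The difference was 0.99 ± 0.52 on the log2 scale (SE, adjusted p = 0.395 by edgeR), and 0.17 without sIVs libraries 3 and 4.

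Cx3cr1, the fractalkine receptor of microglia, stood at 15.2, 41.9, 43.1 and 11.1 CPM in sIVs libraries 2 to 5, against 22.1, 16.3, 19.1 and 12.5 CPM in PBS libraries 1 to 4. Libraries 3 and 4 were above PBS and library 5 below it. Its log2 fold change of 0.67 ± 0.41 (SE, adjusted p = 0.468 by edgeR) turned to -0.42 without those 2 libraries. Cxcr2 had 0, 17, 5 and 10 counts in sIVs libraries and 0, 1, 0 and 0 in PBS libraries. Cxcr3 had 0, 3, 3 and 0 counts in sIVs libraries and 0, 0, 1 and 2 in PBS libraries, too few to compare. Ackr1, an atypical receptor that binds chemokines without G protein signalling, averaged 91.1 ± 6.01 CPM in sIVs and 91.1 ± 5.90 CPM in PBS (SD, n = 4 each). Its difference on the log2 scale was -0.00087 ± 0.075 (SE, adjusted p = 0.998 by edgeR).

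Of 18 chemokine receptor genes, 7 were tested and 0 passed, with 5 log2 fold changes above and 2 below 0 and a median of 0.67, which was 0.15 without sIVs libraries 3 and 4. Of 5 atypical receptor genes, 4 were tested and 0 passed, with a median of 0.15, and of 0.0071 without those libraries. Ccrl2, which holds chemerin at the cell surface, was at 1.12 ± 0.50 and Ackr4 at 0.30 ± 0.35 on the log2 scale (SE, adjusted p = 0.323 and 0.719 by edgeR), and at 0.067 and 0.26 without them. Among other ligands, 4 of 13 CC and XC genes and 4 of 12 CXC genes were tested and 0 passed, with medians of 0.11 and 0.14, which were 0.01 and -0.08 without sIVs libraries 3 and 4. Cxcl12, a homeostatic ligand of Cxcr4, was at -0.38 ± 0.15 and Cxcl16, a membrane-tethered ligand of Cxcr6, at 0.55 ± 0.23 (SE, adjusted p = 0.28 and 0.3 by edgeR). Without those libraries Cxcl12 was at -0.21 and Cxcl16 at 0.044.

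**Figure D4:**
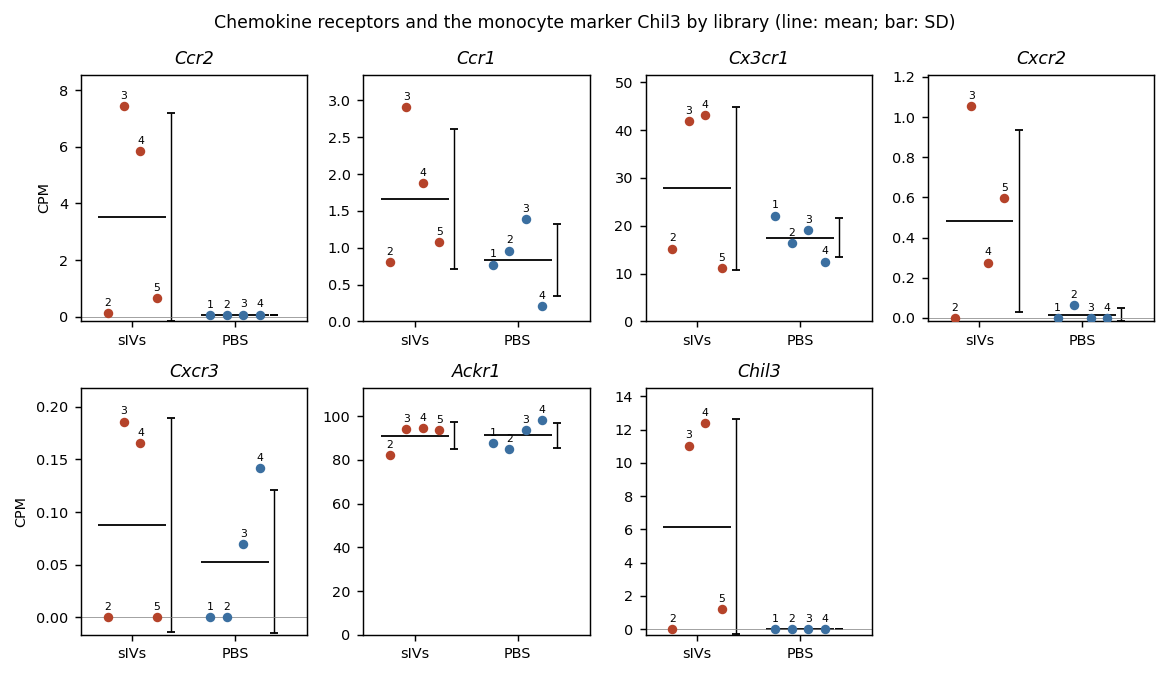
CPM of 6 chemokine receptor genes and of Chil3 by library, sIVs left and PBS right, with digits for the library number, a line for the mean and a bar for the SD (n = 4 each). Ccr2 and Chil3 are high in sIVs libraries 3 and 4, and Ackr1 is near 91.1 CPM in both groups.

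Inducers of chemokine genes were examined as cytokines and as transcription factors. Of 12 cytokine genes, 4 were tested and 0 passed, with a median log2 fold change of 0.85 against -0.01 over all tested genes, and of 0.38 without sIVs libraries 3 and 4. Lif, an interleukin-6 family cytokine of stressed retina, was at 2.02 ± 0.49 and stood at 1.87 without sIVs libraries 3 and 4, and Csf1, a growth factor of microglia, was at 1.07 ± 0.33 and 0.24 without them (SE, adjusted p = 0.167 and 0.205 by edgeR with all libraries). Tnf had 4, 26, 27 and 3 counts in sIVs libraries 2 to 5 and 6, 1, 2 and 3 counts in PBS libraries 1 to 4, and Il1b had 4, 18, 8 and 4 against 8, 3, 1 and 2. Osm had 8, 13, 12 and 3 counts in sIVs libraries and 3, 2, 0 and 2 in PBS libraries. Ifng had at most 1 count in any library. Ifnb1 had 0, 1, 4 and 0 and Il6 had 1, 2, 1 and 2 counts in sIVs libraries, and both had 0 in every PBS library. Il17a and Csf2 had 0 counts in every library. These untested genes were under the filter on low counts.

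All 18 NF-kappaB and interferon regulator genes were tested, 16 with a log2 fold change above and 2 below 0, and 0 passed. Their median log2 fold change was 0.96, and 0.44 without sIVs libraries 3 and 4, and 9 of the 18 had every sIVs library above every PBS library (4.42% over all genes). Zfp36, whose protein destabilises cytokine mRNA, stood at 20.5 ± 2.75 CPM in sIVs and 10.7 ± 1.96 CPM in PBS (SD, n = 4 each, adjusted p = 0.13 by edgeR). Relb, an NF-kappaB subunit gene, stood at 11.0 ± 2.20 CPM in sIVs and 5.38 ± 0.734 CPM in PBS (SD, n = 4 each, adjusted p = 0.136 by edgeR).

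Several marker lists had another level in sIVs libraries 3 and 4. All 10 rod markers had fold changes below 1, and 0 passed. Without those libraries 7 were below and 3 above 1. Of 10 microglia markers, all tested, 8 had fold changes above and 2 below 1, and 0 passed. Without sIVs libraries 3 and 4, 0 were above and 10 below 1, and the median log2 fold change was -0.39, against 0.34 with all libraries. Their summed CPM was 136.0, 263.6, 318.0 and 101.4 in sIVs libraries 2 to 5, and ran from 121.9 to 181.3 in PBS. Relative to this sum, Ccl2 stood at 4.12, 15.3, 13.3 and 20.2 times its PBS mean in sIVs libraries 2 to 5, and PBS libraries ran from 0.493 to 1.99 times. Ccl12 stood at 3.73, 4.26, 5.07 and 5.88 times, against 0.565 to 1.51 times in PBS. Ccl2 and Ccl12 were thus above every PBS library on this scale too. So was Ccl3, whose groups overlapped in CPM. It stood at 2.11, 3.32, 2.79 and 1.57 times, against 0.312 to 1.31 times in PBS. The marker sum of sIVs library 5 was below the PBS range, which raises all ratios of that library. Cxcl10 stood at 3.26, 4.18, 6.73 and 1.43 times, against 0.222 to 1.67 times in PBS. Ccl5 stood at 0.999, 1.33, 1.46 and 7.16 times, against 0.547 to 1.67 times in PBS, so that libraries 3 and 4, above PBS in CPM, were within the PBS range on this scale.

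The 10 monocyte and neutrophil markers, Ccr2 among them, summed to 23.1, 49.8, 42.9 and 18.6 CPM in sIVs libraries 2 to 5 and to 21.1 to 35.0 CPM in PBS. Of these 10, only Vcan and Csf3r (2 genes) were tested, and 0 passed. Vcan made up 19.7, 18.3, 12.4 and 10.1 CPM of the sum in sIVs libraries 2 to 5. In PBS libraries 1 to 4 Vcan made up 19.0, 17.6, 17.3 and 31.5 CPM. Vcan was at -0.50 ± 0.26 and Csf3r at 0.43 ± 0.32 on the log2 scale (SE, adjusted p = 0.388 and 0.553 by edgeR). Without sIVs libraries 3 and 4 they were at -0.53 and -0.23. Chil3 and Ly6c2, monocyte genes named here after their values were seen, had 0, 178, 225 and 20 and 1, 18, 56 and 0 counts in sIVs libraries, and 0 counts in every PBS library. Chil3 has a close copy in the genome that can share reads, so its count is uncertain. The 10 Müller glia and astrocyte markers, of which 6 had fold changes above and 4 below 1 and 0 passed (2 above and 8 below 1 without sIVs libraries 3 and 4), summed to 3174 to 5746 CPM in sIVs and 4894 to 6368 CPM in PBS. Glul, named after its values were seen, held a large part of these sums, averaging 1178 CPM in sIVs and 2292 CPM in PBS. Gfap of the same list went the other way, averaging 389 CPM in sIVs and 162 CPM in PBS. The 12 T and NK cell markers, 1 of them tested, summed to at most 2.67 CPM in sIVs and 2.30 CPM in PBS. Cd8a, the tested gene, had the highest mean of the list in both groups. Cd3e had at most 1 count in any library. Gzmb had 0, 11, 5 and 2 counts in sIVs libraries and 0, 3, 0 and 1 in PBS libraries. Trbc2 had 0, 1, 6 and 1 counts in sIVs libraries, and Cd2 and Nkg7 each had 0, 2, 3 and 0. These 3 genes had 0 counts in every PBS library, while Ncr1 had 1 count, in PBS library 4. The genes were named after their values were seen, and these counts are too few to compare. Vessel markers summed to 525.0, 873.7, 881.8 and 486.9 CPM in sIVs libraries 2 to 5, and to 532.8 to 611.4 CPM in PBS. Kdr alone, a gene named after its values were seen, held 225.4, 512.5, 504.5 and 190.2 CPM of the sIVs sums, and without it the list summed to 296.6 to 377.2 CPM in sIVs and 293.7 to 340.8 CPM in PBS. Summed neuron markers ran from 2516 to 2716 CPM in sIVs and from 2795 to 3460 CPM in PBS, and pigment epithelium markers from 256.9 to 378.3 CPM in sIVs and from 305.2 to 461.0 CPM in PBS. The part of these cells in the chemokine levels was not tested.

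**Figure D5:**
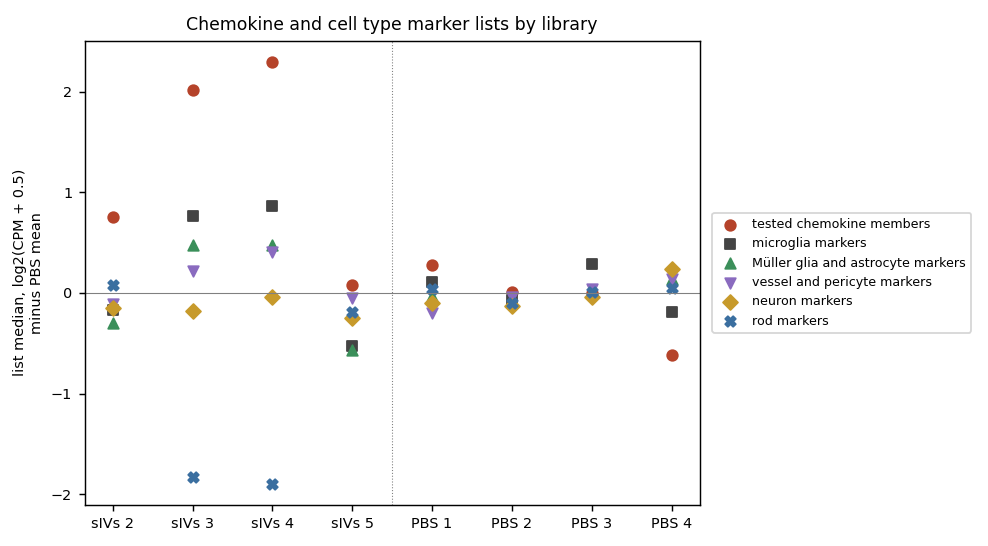
Median over each list of log2(CPM + 0.5) minus the PBS mean, by library, for the 7 tested chemokine genes and 5 marker lists, sIVs left and PBS right of the dotted line. In sIVs libraries 3 and 4 the chemokine median is 2.02 and 2.30 and the rod median -1.83 and -1.90, while sIVs libraries 2 and 5 have chemokine medians of 0.75 and 0.07.

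Genes with profiles most like Ccl2 and Cxcl10 were sought among 14031 protein-coding genes averaging 1 CPM or more, by the root mean square difference of centred log2 profiles over the 8 libraries. The 5 closest to Ccl2 were Saa3, Gpd1, Cdsn, Iigp1 and Lgals3, at differences of 0.43, 0.49, 0.58, 0.59 and 0.60. Saa3, an acute-phase serum amyloid gene, stood at 3.01, 15.6, 19.2 and 7.50 CPM in sIVs libraries 2 to 5, against 1.48, 1.73, 0.277 and 0.0710 CPM in PBS libraries 1 to 4. The 5 closest to Cxcl10 were C3ar1, Mx1, Rsad2, Ifi204 and Tlr2, at differences of 0.50, 0.53, 0.56, 0.57 and 0.58. C3ar1, the closest, stood at 5.48, 21.5, 28.8 and 4.17 CPM in sIVs libraries and 3.92, 4.35, 5.61 and 1.63 CPM in PBS libraries. Rsad2, an interferon-stimulated antiviral gene, stood at 9.02, 45.9, 91.4 and 7.80 CPM in sIVs libraries and 6.87, 6.14, 6.58 and 4.26 CPM in PBS libraries. These likenesses rest on the same 8 libraries, and carry no test.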

How the data were processed

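Per the labels' protocols, retinal RNA was extracted with TRIzol, selected by poly(A) tail, made into dUTP strand-marked libraries and sequenced in pairs. The submitters' processing notes name the mm10 build. The sources used here do not give the aligner, counter, annotation release or strand setting. The authors' deposited count table held whole-number counts per gene. The authors' deposited FPKM table equalled counts scaled by gene length and library total times 1 constant per library of 0.930 to 1.03, within 0.1%, and how that constant was set was not stated.

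The test on counts was that of edgeR 4.0.16 (R 4.3.3), with filterByExpr (17725 of 54532 genes), TMM scaling, glmQLFit and glmQLFTest on the group, and Benjamini-Hochberg adjustment over all tested genes, threshold 0.05. CPM used TMM-adjusted totals, and the SE came from the F statistic. Alternatives used DESeq2 1.42.0, limma 3.58.1 and other scalings, filters, library sets and blocks. The exact permutation test used a pseudocount of 0.5 on counts. The edgeR test was checked on simulated counts, and the exact permutation test on small fixed sets of numbers. Library totals of 14640235 to 16989737 limit the low genes: 1 count is about 0.0640 CPM in PBS library 2. Members, gene lists and alternatives were chosen with earlier results of these data known. The named genes were all 10 members, a set of receptors (1 is not reported here), the 2 tested genes of smallest p from each ligand, receptor, inducer and protease list, and the 5 most alike in profile to Ccl2 and to Cxcl10. No library pair of a group agreed within sampling noise (chi-square per gene at least 3.88). Of 50-base stretches in annotated transcripts of the 10 genes, only 14 of Cxcl9 also occurred in other genes.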

Additional observations from a re-analysis of the deposited data

Results flagged for a closer look

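A gap test within each group of 4 libraries was run on the CPM of the 10 genes, 20 sets in all, where chance alone flags about 1 in 20, and 2 had 1 library far from the rest. Ccl3 stood at 0.213 CPM in PBS library 4, while the other 3 PBS libraries held 1.22, 1.09 and 1.11 CPM. Cxcl9 stood at 0.0710 CPM in PBS library 4, which is 1 count, while the other PBS libraries held 0. Any single count among zeros meets this gap test, so the flag of Cxcl9 carries no weight against the chance rate.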

How the results depend on the processing

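With all 8 libraries and edgeR, 0 genes and 0 members passed. DESeq2 called 536 genes and 2 members, edgeR without a filter on low counts called 152 genes and 2 members, edgeR without sIVs libraries 3 and 4 called 3 genes, and a threshold of 0.1 called 11 genes. Leaving out 1 library at a time gave 0 to 1331 genes and 0 to 2 members, the upper values being those without sIVs library 2. The cause was not tested. The members called in each case were Ccl2 and Ccl12, which stayed short of the threshold in the other 17 of 20 settings. Their adjusted p ran from 8.5e-05 to 0.413 and from 9.63e-06 to 0.413. Ccl3, Ccl4, Ccl5 and Cxcl10 kept a positive sign and no pass in all 20 settings. The log2 fold change of Cx3cl1 turned to -0.11 without sIVs libraries 3 and 4, and ran from -0.025 to 0.075 when 1 library was left out. The log2 fold change of Ccl2 was 2.33 on log2(FPKM + 1), a scale that understates low genes. Scaling by library totals moved the median of all genes to 0.07. The log2 difference of the Ccl3 to Ccl4 ratio ran from -0.22 to 0.39 when 1 library was left out, while the other 2 ratios kept sign and no pass. A replicate block by the numbers in the descriptions, or by those in the titles on libraries 2 to 4, called 0 genes and 0 members, as did libraries 2 to 4 with no block, a setting added after the data were seen. Correlations of same-numbered libraries were taken on log2 CPM after each gene's group mean was subtracted. They were -0.07 to 0.11 (descriptions) and -0.06 to 0.06 (titles), so the numbers were not taken as pairs. Depth limits Ccl7, Cxcl1, Cxcl9 and Ccr2, whose PBS libraries held at most 5 counts each.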

Other observations

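A few neutrophil-associated transcripts, named here after their values were seen, did not share 1 order of libraries. S100a8 and S100a9, calgranulin genes of neutrophils and monocytes, had 0, 10, 9 and 22 and 0, 9, 6 and 28 counts in sIVs libraries 2 to 5, against 0, 0, 2 and 0 and 1, 0, 0 and 2 counts in PBS libraries 1 to 4. Both calgranulins were highest in sIVs library 5, where Ccl5 was also highest, while the neutrophil receptor genes Cxcr2 and Csf3r were highest in sIVs library 3, at 1.05 and 7.81 CPM, against 0.595 and 3.21 CPM in library 5. Cxcl2, which like Cxcl1 binds Cxcr2, had 2, 6, 14 and 13 counts in sIVs libraries and 1, 0, 1 and 1 counts in PBS libraries. Ly6g, a neutrophil surface marker, had 1 count, in sIVs library 2, and 0 in the other libraries. Except for Csf3r, these genes were under the filter on low counts and have no test.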
